A study of Mus musculus with 8 samples.

Results

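Fibrillar collagens, the enzymes that crosslink them and the collagen-binding protein Sparc were followed in cultured embryonic mouse heart cells. The set was a list of 10 gene symbols: Col1a1, Col1a2, Col3a1, Col5a1, Col5a2, Col11a1, Lox, Loxl1, Loxl2 and Sparc. All 10 had a row among the 29844 genes of the coding table, and all 10 were among the 14059 genes with enough reads to be tested. The cells were labelled embryonic cardiomyocytes, taken at E18.5 from digested hearts of embryos of B6.Cg-Tg(HIST1H2BB/EGFP)1Pa/J, a mouse line that carries a fluorescent H2B histone transgene in both groups. They were grown for 4 days in serum-containing medium on polydimethylsiloxane, a silicone rubber, either soft (about 10 kPa, 4 libraries) or stiff (about 150 kPa, 4 libraries). The comparison asks how the stiffness of the substrate affects RNA levels. Whether the 4 libraries of one substrate are separate cultures, litters or preparations is not stated by the labels, and the tests can therefore reflect only the spread from library to library, part of which may be technical. The titles of one substrate share a name. Apart from the last digit, the library codes in them are the same within a substrate and differ between substrates. What the codes mark is not stated, and any difference in handling that goes with them cannot be told apart from stiffness.

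Fibrillar collagens are the rope-like proteins that give connective tissue its tensile strength. Type I collagen combines alpha-1 chains (Col1a1) with an alpha-2 chain (Col1a2), type III is built from alpha-1 chains alone (Col3a1), and the minor types V and XI nucleate fibrils and limit their width. Lysyl oxidases are secreted copper enzymes that oxidise lysine side chains of collagen and elastin, from which covalent crosslinks then form. In the heart these proteins are made mainly by fibroblasts, and type I collagen forms stiffer fibrils than type III.

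The libraries held 27646471 to 34693673 coding counts each and from 2069 (Loxl1) to 175100 (Col1a2) counts of a member, so that counting error was small beside the spread between libraries. Levels are CPM (counts relative to the library total) after scaling by the trimmed mean of M-values (TMM). No transcript lengths were used, so levels are compared between libraries and not between genes. Between stiff and soft, 0 of 14059 genes passed the edgeR quasi-likelihood test at an adjusted p under 0.05 (0%), and 130 had an unadjusted p under 0.05 (0.925%). That share is smaller than the threshold would pass if no gene differed and the libraries were independent. Neither DESeq2 (0 genes) nor limma-voom (0 genes) made a call, and their unadjusted p was under 0.05 for 177 and 181 genes. Of the 10 members 0 passed in these 3 tests. By edgeR 0 had an unadjusted p under 0.05, by DESeq2 Col1a1 did (0.0433, adjusted p 0.99977), and in 0 did the soft and stiff libraries not overlap, against 1.29% of all genes. Each of the 10 had an edgeR adjusted p of 0.99997, which is not repeated below. For 6 of the 8 libraries the most similar library of the other substrate was the one whose code ends in the same digit (soft 1 and stiff 1 were the exceptions), and a fit with that digit as a replicate block gave 360 genes at an unadjusted p under 0.05 (2.56%), of which Col1a1 and Loxl1 were members, and 0 at an adjusted p under 0.05.

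Both chains of type I collagen had lower mean levels on stiff, by estimates smaller than their intervals. Col1a1 encodes the alpha-1 chain and lies on chromosome 11 from 94936224 to 94953042 (RefSeq gene positions on GRCm38.p6, here and below). It stood at 1527, 1486, 2829 and 3125 CPM in soft libraries 1 to 4 and at 1385, 1360, 2098 and 1533 CPM in stiff libraries 1 to 4. Soft 3 and soft 4 were the highest, stiff 3 followed, and the other 5 libraries lay close together, so that the substrates overlapped. The mean was 2242 ± 858 CPM for the soft and 1594 ± 345 CPM for the stiff libraries (SD, n = 4 each), giving a log2 fold change of -0.49 (SE 0.25, 95% interval -1.02 to 0.04). Without soft 4 the log2 fold change was -0.28, and without stiff 3 it was -0.65. With the library digit as a replicate block it was -0.43 (SE 0.14), with an unadjusted edgeR p of 0.00374 and an adjusted p of 1.

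Col1a2, the gene of the alpha-2 chain on chromosome 6 from 4505618 to 4541543, stood at 3603, 3852, 5951 and 5777 CPM in the soft libraries and at 3210, 3645, 5047 and 4170 CPM in the stiff libraries. As for Col1a1, soft 3 and soft 4 were the highest and stiff 3 the third. Its log2 fold change was -0.26 (SE 0.21, 95% interval -0.71 to 0.20). The estimate was -0.14 without soft 3 and -0.38 without stiff 3. Both genes were lower on stiff in each of the 4 library pairs of equal digit. The difference within a pair ran from -0.13 to -1.03 on the log2 scale for Col1a1 and from -0.08 to -0.47 for Col1a2, and in both it was largest between soft 4 and stiff 4.

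The ratio of Col1a1 to Col1a2 counts was taken within each library, where scaling between libraries plays no part. It was 0.424, 0.386, 0.475 and 0.541 on soft and 0.431, 0.373, 0.416 and 0.368 on stiff. Soft 3 and soft 4 exceeded every stiff library, while soft 1 and soft 2 lay among them. The means were 0.456 ± 0.0672 and 0.397 ± 0.0315 (SD, n = 4 each), and the two-sided exact permutation test gave p = 0.143 (0.214 adjusted over the 3 ratios tested). The smallest p this test can give with 4 against 4 is 0.0286. The ratio was lower on stiff in 3 of 4 pairs of equal digit (exact sign-flip p = 0.25), and the mean log2 difference went from -0.19 to -0.11 without soft 4 (exact permutation p = 0.343).

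**Figure D1:**
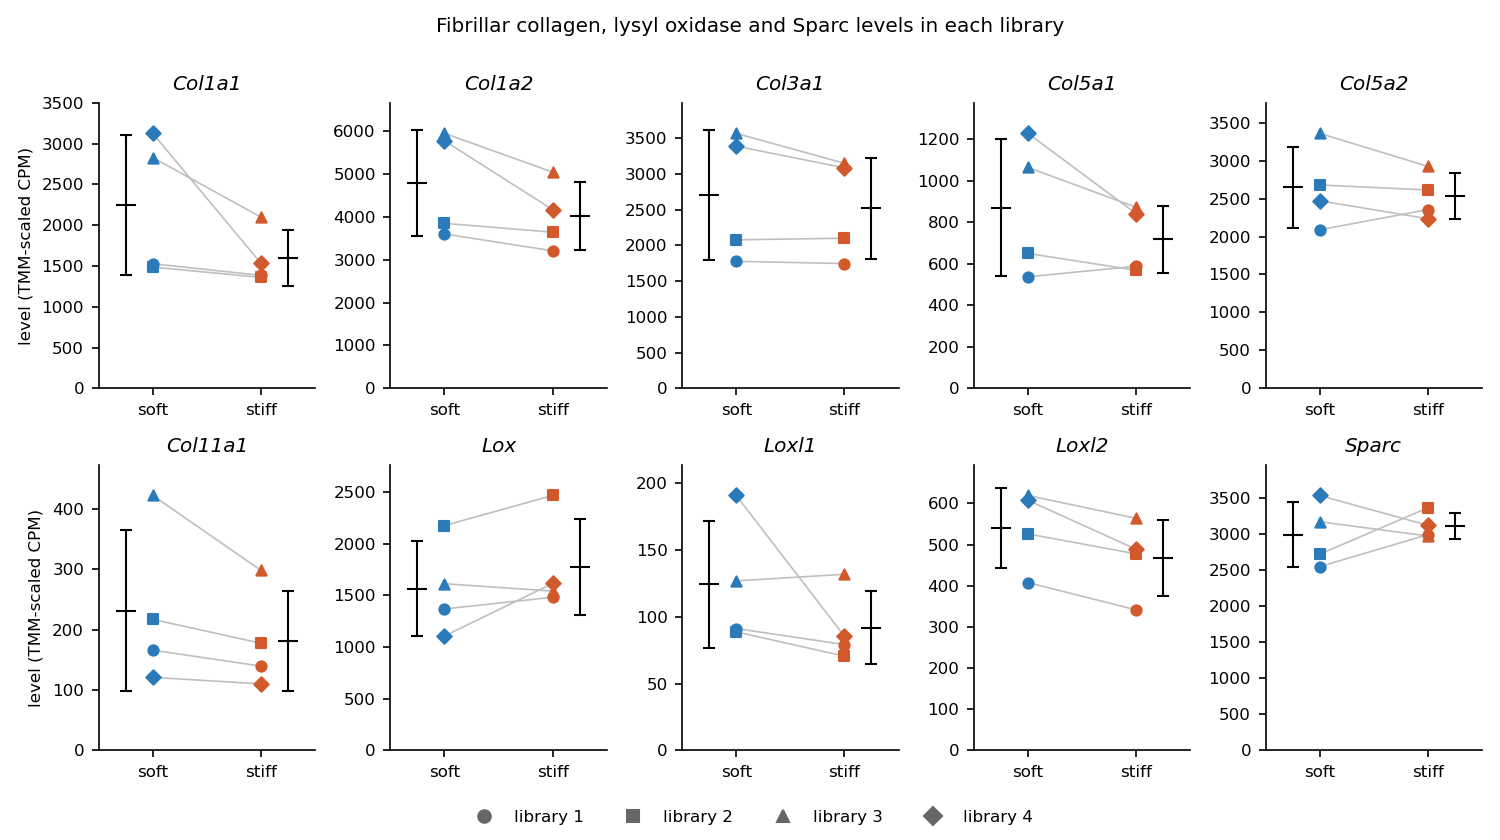
Level of each member in TMM-scaled CPM (vertical axis, from 0) on soft (blue) and stiff (orange). Each marker shape is a library digit, grey lines join libraries of equal digit, and black bars give the mean and SD of the 4 libraries. The substrates overlap in all 10 panels, and soft 3 or soft 4 is the highest library in 9 of them, the exception being Lox.

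Col3a1, the gene of type III collagen on chromosome 1 from 45311538 to 45349706, differed little between substrates beside its spread within them. It stood at 1777, 2078, 3567 and 3388 CPM in the soft libraries and at 1746, 2100, 3149 and 3086 CPM in the stiff libraries. Libraries 3 and 4 of both substrates lay between 3086 and 3567 CPM, and libraries 1 and 2 of both between 1746 and 2100 CPM. Mean levels were 2703 ± 906 and 2520 ± 705 CPM (SD, n = 4 each), and the log2 fold change was -0.10 (SE 0.25, 95% interval -0.64 to 0.43). The sign turned without soft 3 (0.061), soft 4 (0.035) or stiff 1 (0.039).

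The ratio of Col1a1 to Col3a1 counts had a lower mean on stiff, and the difference did not pass the test. The ratio was 0.859, 0.715, 0.793 and 0.922 in soft libraries 1 to 4 and 0.793, 0.647, 0.666 and 0.497 in stiff libraries 1 to 4. The highest value was that of soft 4 and the lowest that of stiff 4, while stiff 1 reached the level of soft 3 and exceeded soft 2. The means were 0.822 ± 0.0890 on soft and 0.651 ± 0.121 on stiff (SD, n = 4 each), and the mean log2 ratio was lower by -0.35 with an exact permutation p of 0.0857 (0.214 adjusted over the 3 ratios). The ratio was lower on stiff in 4 of 4 library pairs of equal digit, by -0.12 to -0.89 on the log2 scale. A two-sided exact sign-flip permutation test of those 4 differences gave 0.125, the smallest p that 4 pairs allow. Without stiff 4 the difference was -0.23, more than 1.5 times smaller. These are ratios of read counts, not of molecules or protein chains, because transcript length enters both.

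**Figure D2:**
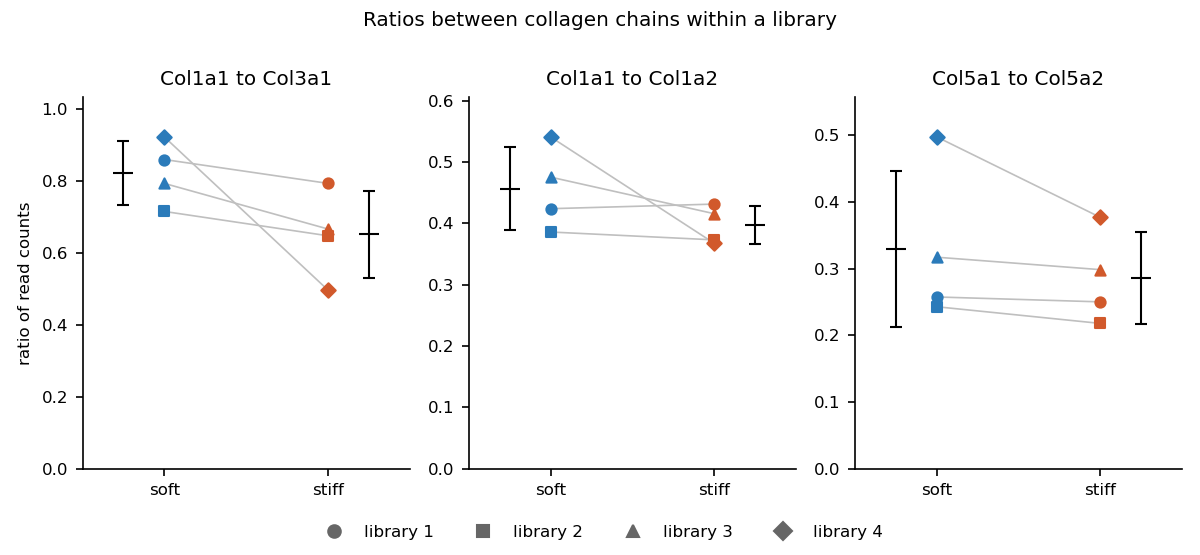
Ratio of read counts between collagen chains within each library (vertical axis, from 0) on soft (blue) and stiff (orange), with markers, lines and bars as in the plot of levels. The Col1a1 to Col3a1 ratio is lower on stiff along all 4 grey lines, and the step from soft 4 (0.922) to stiff 4 (0.497) is the steepest.

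Of the minor fibrillar chains, Col5a1 had a lower mean on stiff, Col5a2 nearly equal means, and Col11a1 varied more between libraries of a substrate than any other member. Col5a1, the alpha-1 chain of type V on chromosome 2 from 27886381 to 28039510, stood at 538, 650 (soft 2), 1065 and 1229 CPM in the soft libraries and at 589, 569, 873 and 842 CPM in the stiff libraries. Libraries 3 and 4 of both substrates were the highest, as for Col3a1. This gave a log2 fold change of -0.28 (SE 0.25, 95% interval -0.81 to 0.26). It was -0.06 without soft 4 and -0.45 without soft 1. The annotated lncRNA gene Gm13372 lies within the span of Col5a1, and reads from it cannot be told apart because strand handling is not given in the sources used here.

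Col5a2, the alpha-2 chain of type V on chromosome 1 from 45374331 to 45503282 and the neighbour of Col3a1, stood at 2089, 2679, 3359 and 2470 CPM in the soft libraries and at 2354, 2613, 2924 and 2234 CPM in the stiff libraries. Library 3 was the highest on both substrates, and library 4 was not raised in either. The log2 fold change was -0.07 (SE 0.19, 95% interval -0.46 to 0.33), which turned to 0.069 without soft 3. The ratio of Col5a1 to Col5a2 counts was 0.257, 0.243, 0.317 and 0.498 on soft and 0.250, 0.218, 0.298 and 0.377 on stiff. Library 4 had the highest ratio on both substrates. The means were 0.329 ± 0.117 and 0.286 ± 0.0692 (SD, n = 4 each; exact permutation p = 0.6, also 0.6 adjusted), with a lower value on stiff in 4 of 4 pairs (exact sign-flip p = 0.125) and a mean log2 difference that turned from -0.17 to 0.048 without soft 4.

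Col11a1, the alpha-1 chain of type XI on chromosome 3 from 114030479 to 114220756, stood at 166, 217, 423 and 121 CPM in the soft libraries and at 139.8, 178, 298 and 110.3 CPM in the stiff libraries. Library 3 was the highest and library 4 the lowest on both substrates, and the highest of the 8 values was 3.83 times the lowest. No other member had so wide a range. Its log2 fold change of -0.35 (SE 0.40, 95% interval -1.22 to 0.52) turned to 0.11 without soft 3. Within the 4 pairs of equal digit it was lower on stiff each time, by -0.13 to -0.50 on the log2 scale. Acan, a cartilage and valve proteoglycan gene of the marker lists, was also highest in library 3 of both substrates, at 59.9 CPM in soft 3 and 62.3 CPM in stiff 3 against 18.1 to 37.6 CPM elsewhere.

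The 3 lysyl oxidase genes did not share one direction: the mean of Lox was higher on stiff and those of Loxl1 and Loxl2 lower, with 0 of 3 past the test. Lox, the founding member of the family on chromosome 18 from 52516060 to 52529867, stood at 1369, 2176, 1613 and 1108 CPM in the soft libraries and at 1482, 2467, 1541 and 1615 CPM in the stiff libraries. Library 2 was the highest on both substrates, and soft 4, where Col1a1 was highest, had the lowest Lox. The log2 fold change was 0.18 (SE 0.23, 95% interval -0.29 to 0.66), and it turned to -0.015 without stiff 2. Lox was higher on stiff in 3 of the 4 pairs of equal digit.

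Loxl1, the paralog best known for elastic fibre crosslinking, lies on chromosome 9 from 58287723 to 58313212. It stood at 91.1, 88.6, 127 and 191 CPM in the soft libraries and at 79.1, 70.4, 132 and 85.3 CPM in the stiff libraries. Soft 4 was the highest, and library 3 was raised on both substrates. For Loxl1 the log2 fold change was -0.44 (SE 0.26, 95% interval -0.99 to 0.11). It was -0.15 without soft 4 and -0.67 without stiff 3. With the replicate block it was -0.41 (SE 0.17), with an unadjusted edgeR p of 0.0221 and an adjusted p of 1. Pair 3 went the other way, at 0.06 on the log2 scale, and pair 4 had the largest difference, at -1.16.

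Loxl2, a paralog with scavenger receptor domains that acts on basement membrane and fibrillar collagen, lies on chromosome 14 from 69608692 to 69695834. It stood at 408, 526, 619 and 608 CPM in the soft libraries and at 341, 477, 564 and 488 CPM in the stiff libraries. The first library was the lowest on both substrates. The log2 fold change was -0.21 (SE 0.19, 95% interval -0.62 to 0.20), and each pair was lower on stiff, by -0.14 to -0.31 on the log2 scale. The estimate was -0.08 without stiff 1 and -0.32 without soft 1. The lncRNA gene Gm27177 and the miRNA gene Mir6950 overlap Loxl2 in the annotation, with the same limit as for Col5a1.

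Sparc, a secreted protein that binds fibrillar collagen and is needed for normal procollagen handling, lies on chromosome 11 from 55394159 to 55420080. It stood at 2545, 2717, 3166 and 3529 CPM in the soft libraries and at 2987, 3359, 2969 and 3116 CPM in the stiff libraries. All 4 stiff libraries lay within the range of the soft ones. Its highest level was 1.39 times its lowest, the smallest ratio of the 10 members. Stiff over soft gave a log2 fold change of 0.06 (SE 0.17, 95% interval -0.31 to 0.42), an interval from 0.808-fold to 1.34-fold, and it turned to -0.014 without soft 1.

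**Figure D3:**
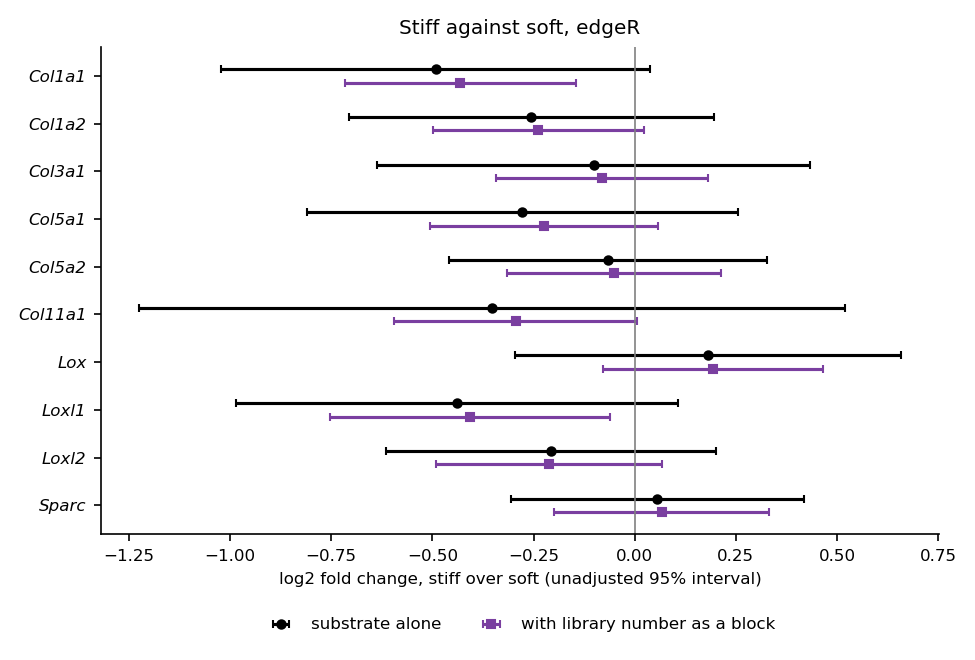
Log2 fold change of each member, stiff over soft (horizontal axis), with its unadjusted 95% interval, from the edgeR fit with substrate alone (black) and with the library digit as a replicate block (purple). All black intervals include 0, and with the block those of Col1a1 and Loxl1 lie below 0.

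Across the set, 8 of 10 members had estimates below 0 on stiff, where 51.9% of all genes did, and the median log2 fold change was -0.23 against -0.01 for all genes tested. The members varied together over the libraries, so these are not 10 separate observations, and the count was 5 of 10 without soft 3, 7 of 10 without soft 4 or stiff 1, and 8 or 9 of 10 without each other library. The median was -0.04 without soft 3, -0.11 without soft 4, -0.12 without stiff 1 and -0.35 without soft 1 or stiff 3. Col1a1, Col1a2, Col11a1 and Loxl2 (4 of 10) were lower on stiff in all 4 library pairs of equal digit, against 5.68% of all genes. No member was higher in all 4, against 4.27%. The 6 collagens together took from 0.978% to 1.75% of a soft library's counts and from 0.957% to 1.48% of a stiff library's. Their summed level was 9700 (soft 1), 10963, 17194 and 16112 CPM on soft and 9423, 10465, 14390 (stiff 3) and 11975 CPM on stiff. The sum was high in soft 3, soft 4 and stiff 3.

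The labelled cell type was checked against marker genes. The 16 cardiomyocyte markers were all detected and summed to between 26611 and 48329 CPM on soft and between 28284 and 39724 CPM on stiff. Soft 4 held the 48329 CPM, and the other soft libraries held at most 28826 CPM. Markers of other heart cells were present too. The 16 fibroblast markers, chosen without any member, summed to 4874, 5565, 5587 and 6332 CPM in the soft libraries and to 4845, 5991, 5356 and 6194 CPM in the stiff libraries. Of these 15 were tested, 0 passed and 9 had lower estimates on stiff (median log2 fold change -0.01), and Pi16 was under 1 CPM. The fibroblast sum was at 5589 ± 595 and 5596 ± 615 CPM (SD, n = 4 each). Postn alone held 1456 CPM of the soft mean and 1452 CPM of the stiff mean, so the sum weighs its 16 genes unevenly. Whether the number of fibroblasts was equal was not tested.

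The 12 mural cell markers, of smooth muscle and pericytes, followed the collagens more closely over the libraries. They summed to 3082, 3455, 4726 and 4749 CPM on soft and to 3249, 3486, 4200 and 3041 CPM on stiff, high in the same soft 3, soft 4 and stiff 3. All 12 were tested, 0 passed and 11 had lower estimates on stiff (median -0.20), and Kcnj8 was under 1 CPM. Acta2, which also marks activated fibroblasts, held 1701 of the mean sum of 4003 CPM on soft and 1442 of 3494 CPM on stiff. The sum is therefore not a measure of mural cells alone. Which cells of the cultures held these RNAs, the labelled cardiomyocytes included, was not tested. The epicardial sum ran from 796 to 1232 CPM on soft and from 765 to 969 CPM on stiff, the endothelial sum from 231 to 325 and from 254 to 369 CPM, and the leukocyte sum from 121 to 183 and from 113 to 166 CPM. The 7 valve and cartilage-like markers, of which 3 were tested and 0 passed, summed to 27.3 to 66.0 CPM on soft and 24.6 to 68.3 CPM on stiff. Their sum was highest in library 3 of both, as Col11a1 was. Acan alone held 59.9 of the 66.0 CPM in soft 3 and 62.3 of the 68.3 CPM in stiff 3. The peak in library 3 was therefore that of Acan and not of the list as a whole. The part of these cell types in the collagen levels was not tested. In bulk RNA, fewer cells of a type and less RNA per cell cannot be told apart.

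**Figure D4:**
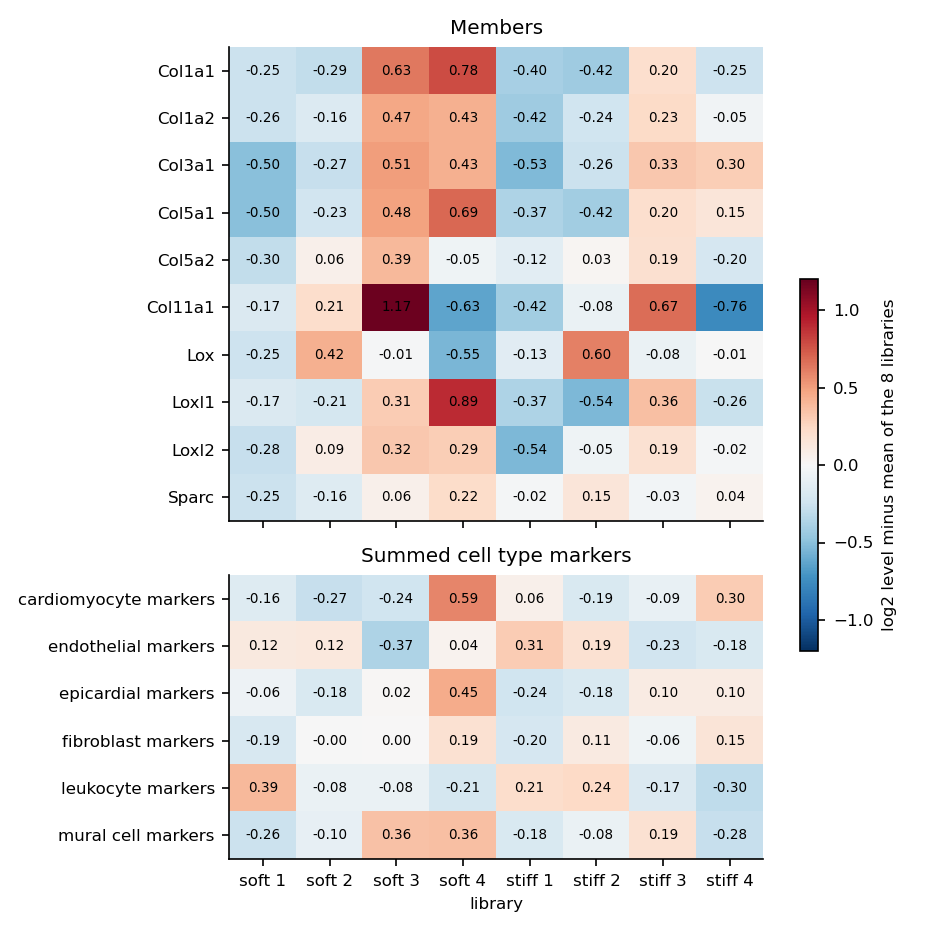
Log2 level of each member (top) and of summed cell type markers (bottom) in each library (columns), minus the mean over the 8 libraries. Red is above and blue below that mean. Col1a1, Col1a2, Col3a1, Col5a1, Loxl1 and Loxl2 are above it in soft 3, soft 4 and stiff 3. So are the mural cell markers and, only just in soft 3, the epicardial markers. Col11a1 and Lox are below it in soft 4, and Col5a2 slightly so.

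By Pearson correlation of log2 CPM over the 8 libraries, Col1a2 (0.95) and Loxl2 (0.90) were most like the mean of the other 9 members. Col3a1 (0.85), Col1a1 (0.84), Col5a1 (0.82), Col5a2 (0.78) and Loxl1 (0.70) followed. Sparc (0.44) and Col11a1 (0.42) were less alike, and Lox was at -0.32. The 8 libraries share preparation and composition, and these values describe them only.

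Among 6182 other genes with a mean of at least 32 CPM, the 10 whose log2 level over the 8 libraries was most like the mean of the members were, in order, Acta2 (r = 0.98), Thbs2 (0.98), Pja1 (0.97), Sdc1 (0.95), Higd1a (0.94), Ppib (0.93), Nlrp4e (0.92), Vti1b (0.92), Ier3 (0.91) and Stbd1 (0.91). Acta2 encodes smooth muscle actin, a marker of mural cells and of activated fibroblasts, and is in the mural list above. Its level was 1701 ± 435 CPM in soft and 1442 ± 291 CPM in stiff libraries (SD, n = 4 each). For Thbs2, a matricellular thrombospondin, it was 185 ± 72.8 and 140.3 ± 46.1 CPM. Ppib is the prolyl isomerase of collagen folding, and Sdc1 a cell surface heparan sulphate proteoglycan.

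Promoter sequences are shown for Col1a2 and Col3a1, which were both high in soft 3, soft 4 and stiff 3. That of Col11a1 is shown beside them, a gene that was high in soft 3 and stiff 3 but low in soft 4. Col1a2 and Col3a1 differed in stiff 4. There the log2 level of Col3a1 was 0.30 above its mean over all libraries, and that of Col1a2 was slightly below its own (-0.05). RefSeq entries on GRCm38.p6 were found for 5 of the 10 members (Col1a2, Col3a1, Col5a1, Col11a1 and Sparc). Each sequence below is the 250 bases before a transcript start in that table, 5′ to 3′ on the plus strand, in lower case with motif matches in capitals. The motifs searched on both strands were CCAAT (bound by NF-Y, and a known element of type I collagen promoters), TATAAA (the TATA box), GGGCGG (the GC box of SP1), TGANTCA (AP-1) and CATTCC (TEAD). The windows are chr6:4505368-4505617 for Col1a2, chr1:45311288-45311537 for Col3a1 and chr3:114030290-114030539 for Col11a1.
Col1a2: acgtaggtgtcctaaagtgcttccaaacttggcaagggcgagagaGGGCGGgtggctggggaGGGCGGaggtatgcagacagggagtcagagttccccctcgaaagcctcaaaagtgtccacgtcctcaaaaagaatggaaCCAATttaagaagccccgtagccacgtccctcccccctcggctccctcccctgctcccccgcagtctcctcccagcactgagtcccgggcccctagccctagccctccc
Col3a1: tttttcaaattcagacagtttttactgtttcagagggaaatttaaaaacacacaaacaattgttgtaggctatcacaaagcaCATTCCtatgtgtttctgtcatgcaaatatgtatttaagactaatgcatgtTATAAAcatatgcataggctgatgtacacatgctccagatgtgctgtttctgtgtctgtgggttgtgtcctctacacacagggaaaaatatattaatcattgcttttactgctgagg
Col11a1: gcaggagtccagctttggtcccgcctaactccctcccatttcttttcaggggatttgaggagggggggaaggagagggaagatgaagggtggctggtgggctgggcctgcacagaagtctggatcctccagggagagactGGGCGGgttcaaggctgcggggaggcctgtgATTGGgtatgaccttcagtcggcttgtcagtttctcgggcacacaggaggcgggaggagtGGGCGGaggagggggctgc
Col1a2 held 1 CCAAT, starting 109 bases before the start, and 2 GGGCGG. Col11a1 held 1 CCAAT on the minus strand, starting 79 bases before the start, and 2 GGGCGG. The Col11a1 window ends past the start of the gene's annotated span given above, so that its last bases, with the GGGCGG that starts 19 bases before the transcript start, lie inside the gene. Col3a1 held neither, and had 1 TATAAA and 1 CATTCC. No matches overlapped. The Col3a1 window was 35.2% G or C, against 62% for Col1a2 and 62.4% for Col11a1. Of 32851 RefSeq windows of the same length, 33.9% held a CCAAT, 32.7% a GGGCGG, 12.4% a TATAAA, 6.75% a TGANTCA and 12.6% a CATTCC. Col1a2 and Col3a1 had none of the 5 motifs in common in these windows. A match describes letters only, and its absence says nothing about the factor.

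The other genes of collagen biology were taken from lists. Of 19 genes of procollagen modification and folding, 0 passed, with 5 higher and 14 lower estimates on stiff and a median log2 fold change of -0.06. Serpinh1, the collagen chaperone HSP47, measured 1202, 1033, 1936 and 2559 CPM in soft libraries 1 to 4, while stiff libraries 1 to 4 had 971, 1138, 1669 and 1553 CPM (log2 fold change -0.34, SE 0.27). It was high in libraries 3 and 4 of both substrates, as Col3a1 was. The prolyl hydroxylase genes P4ha1 and P4hb had log2 fold changes of -0.02 (SE 0.19) and -0.06 (SE 0.20), and the lysyl hydroxylase gene Plod2 of the telopeptides -0.03 (SE 0.22). P3h1 (-0.34, SE 0.20) and Plod1 (-0.38, SE 0.22) had the smallest p-values of the list. With the replicate block Plod1 had an unadjusted edgeR p of 0.0480, the 1 gene of the list under 0.05.

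Of 8 propeptide processing genes 7 were tested, 0 passed and all 7 estimates were below 0, at a median of -0.27, where 51.9% of all genes had lower estimates. How far this count rests on single libraries, or on genes that vary together, was not tested. Bmp1, the C-propeptide protease, stood at 117 ± 26.5 and 107 ± 18.6 CPM on soft and stiff, and its enhancer gene Pcolce at 145 ± 75.7 and 123 ± 6.78 CPM (SD, n = 4 each). The N-propeptide proteases Adamts2 and Adamts3 had log2 fold changes of -0.28 (SE 0.20) and -0.47 (SE 0.31), and the Bmp1 relative Tll1 -0.52 (SE 0.45). Of the other fibrillar collagens, all 5 were tested and 0 passed. Col5a3 stood at 6.36 ± 2.48 and 3.28 ± 1.07 CPM and Col27a1 at 13.0 ± 5.47 and 11.4 ± 6.63 CPM. Col2a1, the main collagen of cartilage, was at 7.51 CPM in soft 3 and 5.16 CPM in stiff 3 and at most 0.987 CPM elsewhere, so that it was highest in the same libraries as Col11a1. Col11a2, a type XI chain gene of the same list, went the other way. It was lowest in library 3 of both substrates, at 0.498 CPM in soft 3 and 0.210 CPM in stiff 3, against 0.730 to 1.87 CPM elsewhere. Both Col2a1 and Col11a2 were low-level genes. The log2 estimate of Col24a1 was -0.95 (SE 1.03). Of the other lysyl oxidases 0 of 2 passed, with log2 estimates of 0.13 (SE 0.26) for Loxl3 and -0.35 (SE 0.33) for Loxl4.

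Of 14 fibril-associated and beaded collagens 11 were tested, 0 passed, and 5 had higher and 6 lower estimates on stiff (median -0.21). With the replicate block 3 of the 11 were lower and the median was 0.09, on the other side of 0. The genes of this list with an unadjusted edgeR p under 0.05 were Col19a1 (0.0423) without the block, and Col6a3 (0.00683) and Col14a1 (0.00234) with it. The type VI chain genes Col6a1 and Col6a3 had log2 fold changes of 0.06 (SE 0.19) and 0.35 (SE 0.50), Col12a1 0.16 (SE 0.24), Col14a1 -0.48 (SE 0.30) and Col16a1 -0.31 (SE 0.28). Col19a1 had 183, 58, 34 and 0 counts in the soft libraries and 8, 3, 1 and 17 counts in the stiff libraries, too few for a fold change to be read. Of 9 fibril assembly partners 8 were tested, 0 passed, and 3 had higher and 5 lower estimates (median -0.02). Fibronectin (Fn1) was at -0.06 (SE 0.17), periostin (Postn) at 0.00 (SE 0.26), decorin (Dcn) at 0.12 (SE 0.23) and biglycan (Bgn) at 0.13 (SE 0.15), while the low-level gene Fmod was at 0.76 (SE 0.38) and Tnxb had 6.74 ± 3.83 and 3.36 ± 0.42 CPM (SD, n = 4 each). With the replicate block Fmod had an unadjusted edgeR p of 0.0353, the 1 gene of this list under 0.05.

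Collagen receptors split into 4 higher and 4 lower estimates of 8, with 0 passed and a median of 0.00. With the replicate block 5 of 8 were lower (median -0.02), as Ddr2 turned to -0.03. The integrin genes Itga1 and Itgb1, whose products pair as a collagen receptor, were at 0.19 (SE 0.17) and 0.05 (SE 0.17), the discoidin receptor genes Ddr1 and Ddr2 at -0.04 (SE 0.19) and 0.03 (SE 0.23), Mrc2, of collagen uptake, at -0.27 (SE 0.20) and Itga10 at 0.90 (SE 0.56). Of 7 SPARC family genes 5 were tested and 0 passed (2 higher and 3 lower, median -0.10). With the replicate block all 5 were lower, at a median of -0.11. Among them Fstl1 stood at 1936 ± 446 and 1802 ± 423 CPM, and Smoc2 at 33.9 ± 6.69 and 25.4 ± 5.30 CPM (SD, n = 4 each), while Sparcl1 and Smoc1 had log2 fold changes of -0.24 (SE 0.36) and 0.01 (SE 0.34).

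**Figure D5:**
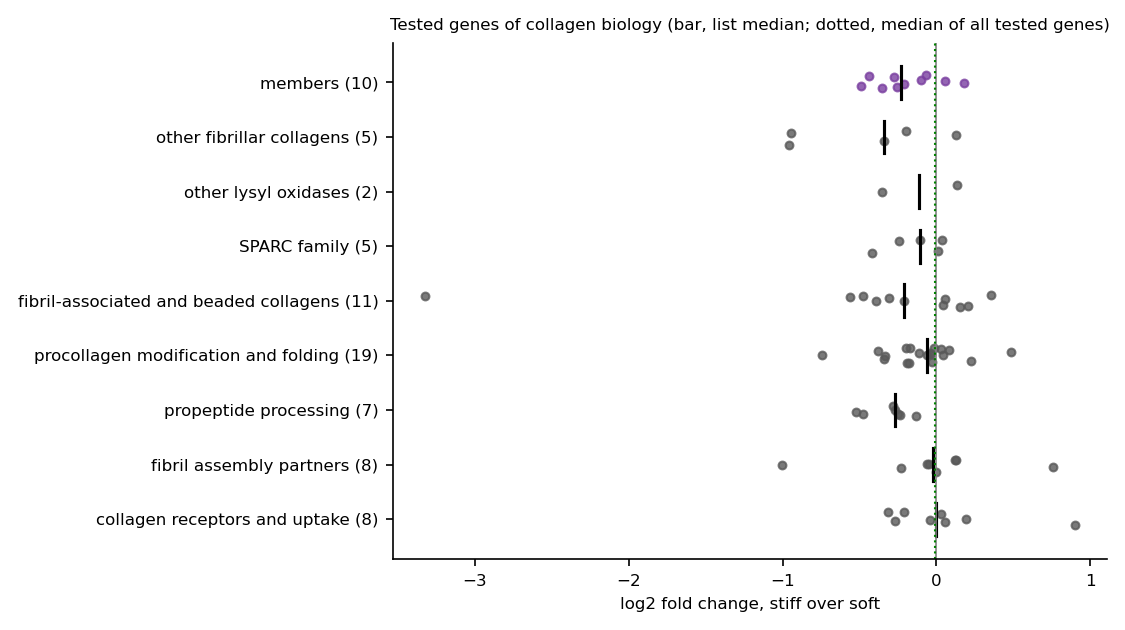
Log2 fold change, stiff over soft (horizontal axis), of each tested gene in the members (purple) and the related lists (grey), with the number tested in brackets. Black bars are list medians and the dotted line is the median of all tested genes (-0.01). The propeptide processing genes are the one list of more than 2 genes with every point below 0, where 51.9% of all tested genes were below 0. In any list 0 genes passed the test.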

How the data were processed

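The authors deposited a table of raw read counts (whole numbers per Ensembl gene and library) for coding genes; a noncoding table was not used here. Per the submitters' processing notes the build was GRCm38 and the tools included HTSeq 0.6.1, TopHat2 2.0.14, Cufflinks, FastQC 0.11.2, edgeR, Bowtie2 and DESeq2, with no role given; strand handling is not given in the sources used here. Members were matched by Ensembl ID to symbol (29150 of 29844 IDs had one), and positions are RefSeq's on GRCm38.p6. Groups follow the substrate label, and libraries are numbered in the order of the samples.

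The fit used edgeR 4.0.16 under R 4.3.3 (filterByExpr with a minimum count of 10 and total of 15, TMM, robust quasi-likelihood test of substrate, Benjamini-Hochberg over 14059 genes), with limma 3.58.1 and DESeq2 1.42.0 as alternatives. Ratios used two-sided exact permutation tests. On simulated counts of 14059 genes, the edgeR fit recovered, at 32 CPM or more, 28 of 28 genes with a 4-fold change, 15 of 25 at 2-fold and 1 of 18 at 1.5-fold, with 3 false calls over all genes. Each simulated library was drawn independently, with no likeness between libraries of equal digit, so these rates need not hold for the real libraries. No 2 libraries agreed within sampling noise (chi-square per degree of freedom 44.8 to 224 over 28 pairs).

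The last digit of the library codes in the titles may pair the libraries, though the labels do not say what it marks: deviations from the group means over 14059 genes correlated at 0.10 to 0.31 for the 4 pairs of equal digit and at -0.23 to 0.13 for the others. Each pair exceeded 0.1, although soft 1 and stiff 1 each correlated better with a library of another digit, so the fit with the digit as a replicate block is given where it moved a count.

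Members and lists were chosen with earlier results of these data known. The text names all members, up to 4 tested genes of each list by highest level and 2 by smallest p, and the 10 genes most like the members' mean log2 CPM (prior count 2). Acan, Col2a1 and Col11a2 as library comparisons, and Thbs2, Ppib and Sdc1 among the 10, were picked for description after their values were seen. Alternatives were other scaling factors, filters and tests, the block, and each library left out.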

Additional observations from a re-analysis of the deposited data

Results flagged for a closer look

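In 42 groups of 4 libraries (members, ratios, sums and marker sums on each substrate), a library lay far from the other 3 of its group in 2, where chance flags about 1 in 20. Lox stood at 2467 CPM in stiff 2, against 1482 to 1615 CPM in the other stiff libraries. The summed cardiomyocyte markers stood at 48329 CPM in soft 4, where soft 1, 2 and 3 had 26611 to 28826 CPM.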

How the results depend on the processing

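The 10 members kept their direction under other scaling factors, no filter, a filter of 1 CPM in 4 libraries, DESeq2, limma-voom and the replicate block, and 0 members passed under any of these. The block changed no call by edgeR. The count of genes called was 0 under each planned setting (0 to 0 with each library left out), and 8, none of them a member, with limma-voom and the replicate block, a setting chosen after seeing the data, where the adjusted p of Col1a1 was 0.261. In that limma-voom fit 432 of 14059 genes had an unadjusted p under 0.05. Among them were Col1a1 (2.04e-04), Loxl1 (0.0102), Col1a2 (0.0296) and Col11a1 (0.0413), and none of the other members. Genes with an unadjusted p under 0.05 numbered 473 with no filter, which tests 17351 genes, 272 without soft 2 and 272 without stiff 4, 230, 213, 199 and 166 without stiff 1, soft 4, stiff 3 and soft 1, and 360 with the block, against 130; the cause was not tested. Leaving out each library in turn gave log2 fold changes from -0.26 to 0.061 for Col3a1, -0.16 to 0.069 for Col5a2, -0.70 to 0.11 for Col11a1, -0.015 to 0.39 for Lox and -0.014 to 0.15 for Sparc, and the log2 difference of the Col5a1 to Col5a2 ratio ran from -0.32 to 0.048; the others kept their sign. The Col1a1 to Col3a1 difference ran from -0.45 to -0.23, with exact permutation p from 0.0571 to 0.171, and that of Col1a1 to Col1a2 from -0.27 to -0.11 (0.0857 to 0.343). The summed collagens had a log2 ratio of means, stiff over soft, of -0.22 (-0.35 to -0.08 with each library left out). A planned division by coding length was not run, as no lengths were used here. The typical (median) unadjusted interval spanned 1.51-fold on each side of its estimate, and smaller differences were mostly not detectable. Calls were made at an adjusted p, so larger differences could be missed too. Over genes of all levels in the simulated counts, the edgeR fit recovered 1 of 66 genes at 1.5-fold. It recovered 16 of 67 at 2-fold and 48 of 67 at 4-fold, rates that need not hold for the real libraries.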
